A study of Mus musculus with 7 samples.

Results

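The 10 genes described here carry the pigment programme of the melanocyte: the enzymes Tyr, Tyrp1 and Dct, the melanosome proteins Pmel and Mlana, the melanosome transporters Oca2 and Slc45a2, the melanocortin receptor Mc1r, and the transcription factors Mitf and Sox10, which mark melanocyte identity. They were followed through every probe set of the array annotated to exactly 1 of these symbols, which gave 19 of the 45037 probe sets tested, and 0 probe sets shared a member with another gene. The samples were wound-edge tissue of the skin, taken on day 5 from C57BL/6 mice: 3 MFG-E8 wild-type (WT) animals, numbered 2, 3 and 4, and 4 MFG-E8 knockout (KO) animals, numbered 8, 10, 11 and 12. Each animal gave 1 Affymetrix array of total RNA, labelled with biotin. MFG-E8 is the milk fat globule protein that bridges dying cells to phagocytes. The age and sex of the mice, the wound, and the way the KO allele was made are not given in the sources used here. The question was whether the pigment enzymes and the identity factors differed between KO and WT, and whether these classes of genes went together across the 7 arrays.

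In the trunk skin of mice, pigment-forming melanocytes sit mainly in the bulbs of growing hair follicles, and they pass melanin to the cells that build the hair shaft. Melanin synthesis there follows the hair cycle: it runs during growth and stops when the follicle rests. MITF binds the M-box, an extended E-box in the promoters of many pigment genes, and SOX10, which is also made by Schwann cells, acts upstream of Mitf. Because whole tissue was measured, fewer melanocytes and less RNA per melanocyte cannot be told apart in these values.

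Promoter sequences from RefSeq (build GRCm38.p6) are shown because several of the genes that were high on the same arrays have the core of the M-box near their start. Entries were held for Tyr, Tyrp1, Dct, Oca2, Mc1r and Mitf. Each window was searched on both strands, from 250 bases before the start to 50 bases after it, for TCATGTG (the M-box core), for CATGTG (the E-box, which the M-box core contains) and for TGACGTCA (the cAMP response element). The lines below give the 250 bases before the start, 5′ to 3′ on the gene's strand, with M-box cores in capitals in the enzymes and Mc1r, and the cAMP response element in capitals in Mitf.
Tyr (chr7:87493513-87493762, minus strand): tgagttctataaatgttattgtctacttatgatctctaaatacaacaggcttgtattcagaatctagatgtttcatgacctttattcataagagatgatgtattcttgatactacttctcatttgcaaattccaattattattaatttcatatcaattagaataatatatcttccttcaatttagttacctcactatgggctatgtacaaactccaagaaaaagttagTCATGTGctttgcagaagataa
Tyrp1 (chr4:80833963-80834212, plus strand): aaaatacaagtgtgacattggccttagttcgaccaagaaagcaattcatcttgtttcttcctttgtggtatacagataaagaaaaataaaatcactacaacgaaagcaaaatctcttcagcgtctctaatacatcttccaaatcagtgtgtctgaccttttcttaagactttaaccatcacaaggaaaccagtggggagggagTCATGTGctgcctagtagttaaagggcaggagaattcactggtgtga
Dct (chr14:118052247-118052496, minus strand): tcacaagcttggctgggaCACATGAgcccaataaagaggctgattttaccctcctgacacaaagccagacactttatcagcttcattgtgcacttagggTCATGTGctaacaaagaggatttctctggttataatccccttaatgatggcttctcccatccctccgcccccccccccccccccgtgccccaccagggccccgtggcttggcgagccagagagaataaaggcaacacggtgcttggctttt
Mc1r (chr8:123406832-123407081, plus strand): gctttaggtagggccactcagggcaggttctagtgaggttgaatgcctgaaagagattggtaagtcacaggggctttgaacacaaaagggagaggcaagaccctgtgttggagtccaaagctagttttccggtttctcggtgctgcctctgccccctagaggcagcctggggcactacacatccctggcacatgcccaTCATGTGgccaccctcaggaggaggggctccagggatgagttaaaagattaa
Mitf, the most 3′ of 3 starts (chr6:97991533-97991782, plus strand): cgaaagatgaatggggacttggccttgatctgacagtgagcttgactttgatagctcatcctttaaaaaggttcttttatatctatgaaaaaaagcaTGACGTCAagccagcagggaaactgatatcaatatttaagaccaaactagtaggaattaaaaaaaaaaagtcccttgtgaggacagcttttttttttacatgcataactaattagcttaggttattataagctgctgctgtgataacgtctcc

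TCATGTG was present in 4 of the 6 members with an entry (Tyr, Tyrp1, Dct and Mc1r), and in 3.77% of all 32851 promoters. Its first base lay 22 bases before the start in Tyr, 47 in Tyrp1 and 52 in Mc1r. Dct held a copy on each strand, with their first bases 232 bases before the start on the reverse strand and 151 on the forward strand. CATGTG was present in the same 4 genes and also in Oca2, and in 14.15% of all promoters. TGACGTCA was found in Mitf alone among the members, 153 bases before the most 3′ of its starts, and in 1.79% of all promoters. These are matches of letters in a window, and binding was not measured. Tyr and Oca2 lie on chromosome 7, as does Mfge8. Pmel lies on chromosome 10, Mlana on chromosome 19, and Slc45a2 and Sox10 on chromosome 15.

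The deposited values are log2 expression values from which the submitters had subtracted a baseline for each probe set, so a value of 0 is that baseline and the table holds no expression levels. Values can be compared between arrays within a probe set, and differences can be compared between probe sets. Mfge8, the targeted gene, read 0.915, 0.765 and 0.996 in WT animals 2, 3 and 4, and -0.64, -0.96, -1.14 and -1.30 in KO animals 8, 10, 11 and 12. All 4 KO arrays lay below all 3 WT arrays, as labelled, with a KO minus WT difference of -1.90 (SE 0.16, limma with Benjamini-Hochberg adjustment, adjusted p = 0.00875). Mfge8 did not pass the threshold of 0.05 without WT animal 2 (-1.89, adjusted p = 0.0922), WT animal 3 (-1.97, adjusted p = 0.0669) or KO animal 10 (-1.92, adjusted p = 0.059). Whether its probe set lies in the deleted part of the gene is not known here. Array medians ran from -0.0042 to 0.0121. KO animals 8 and 10 stood apart from the other 5 arrays in hair keratin and hair shaft genes, and the differences of the members and the medians of the gene lists are therefore given with and without them.

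None of the 19 member probe sets passed the adjusted threshold of 0.05 between KO and WT by limma, against 0.0444% of all probe sets (20 of 45037, and 0.00888% called higher in KO). At an unadjusted p under 0.05 the count was 2 of 19, against 7.39% of all probe sets. Adjusted p-values of the members ran from 0.605 to 0.981. In 17 of the 19 the KO mean was above the WT mean, and the median difference was 0.57, against 0.0134 over all probe sets. The spread of the KO animals was wide: KO animals 8 and 10 both lay above all other 5 arrays in 16 of the 19, every member probe set outside Sox10, against 9.45% of all probe sets. P-values here measure the spread between these 7 animals, with 1 array each.

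**Figure D1:**
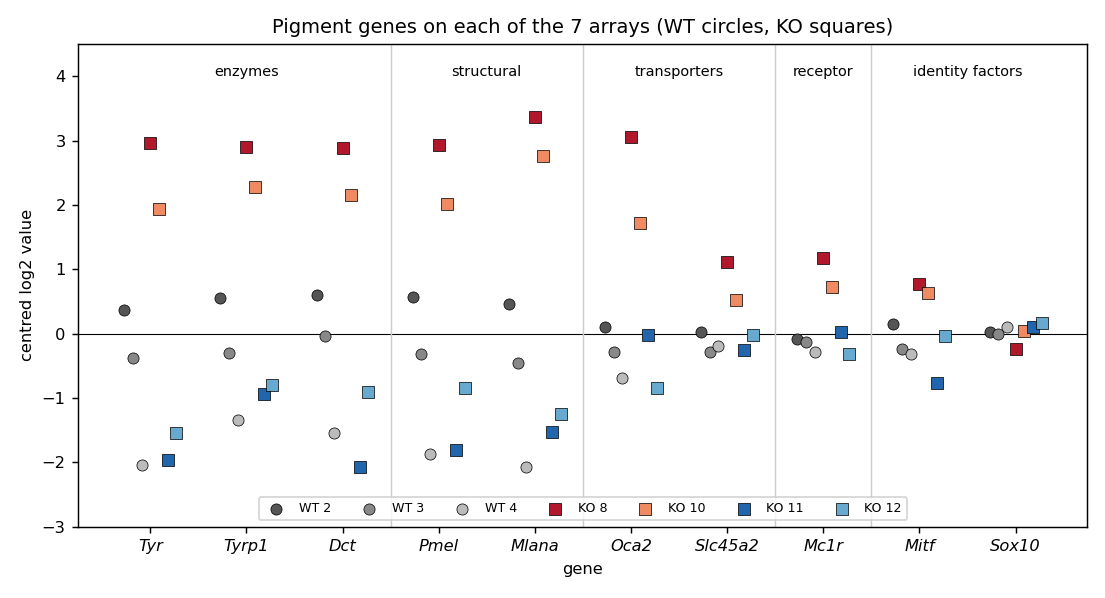
Centred log2 value of each of the 10 genes (horizontal axis, by role) on each of the 7 arrays (vertical axis), with WT animals as circles and KO animals as squares. KO animals 8 and 10 are the highest arrays in every gene but Sox10, while KO animals 11 and 12 lie among or near the WT animals; the Tyr points run from -2.04 to 2.96 and the Sox10 points from -0.24 to 0.17.

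Tyr encodes tyrosinase, the rate-limiting enzyme of melanin synthesis. Its probe set 1417717_a_at read 0.37, -0.37 and -2.04 in WT animals 2, 3 and 4, and 2.96, 1.93, -1.97 and -1.55 in KO animals 8, 10, 11 and 12. The groups overlapped, with KO animals 8 and 10 at the top and KO animals 11 and 12 below WT animals 2 and 3. The KO minus WT difference was 1.03 (SE 1.21, adjusted p = 0.882 by limma), and the spread within KO (SD 2.47, n = 4) exceeded it. The other Tyr probe sets, 1448821_at and 1456095_at, lay in the lowest recovered band of level on their lowest array (2 to 4 on the log2 scale) and differed by 0.47 (SE 0.43) and 0.57 (SE 0.47). Their highest values, 1.46 and 1.69, were again in KO animal 8. In 1448821_at KO animal 10, at 0.36, was only slightly above WT animal 2, at 0.12.

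Tyrp1, tyrosinase-related protein 1, acts late in eumelanin synthesis and held the member probe set with the widest range. Its probe set 1415861_at read 0.59, -0.45 and -2.13 in the WT animals and 3.50, 2.51, -2.72 and -1.07 in KO animals 8, 10, 11 and 12. The highest and the lowest of the 7 arrays were thus both KO animals, 6.22 log2 units or 74.5-fold apart, a range larger than that of 99.9% of all probe sets. The groups differed by 1.22 (SE 1.42). Probe set 1415862_at ran from -2.14 in KO animal 11 to 3.80 in KO animal 8 and differed by 1.50 (SE 1.38). Probe set 1439409_x_at, whose name marks it as able to cross-hybridise, read 0.56, -0.30 and -1.34 in WT and 2.90, 2.29, -0.93 and -0.79 in KO. It was the brightest of the 3, with a recovered level of at least 8 on every array, and its difference was 1.23 (SE 0.98, adjusted p = 0.819 by limma).

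Dct, dopachrome tautomerase, acts between the other two enzymes. It read 0.60, -0.041 and -1.55 in WT animals 2, 3 and 4, and 2.88, 2.16, -2.07 and -0.91 in KO animals 8, 10, 11 and 12. The order of the 7 arrays matched that of Tyrp1 probe set 1415861_at, with KO animal 11 lowest. The difference was 0.84 (SE 1.15, adjusted p = 0.901 by limma), the smallest among the enzymes when each is taken at its brightest probe set. On that basis the mean of the 3 enzymes was 0.51, -0.24 and -1.65 in WT and 2.92, 2.12, -1.66 and -1.08 in KO. WT animal 2 was thus higher than KO animals 11 and 12, and WT animal 4 was level with KO animal 11.

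The melanosome proteins followed the enzymes. Pmel forms the amyloid fibrils on which melanin is laid down, and it read 0.58, -0.31 and -1.86 in WT and 2.93, 2.02, -1.80 and -0.84 in KO. The groups overlapped and differed by 1.11 (SE 1.12, adjusted p = 0.86 by limma). Mlana, a melanosome protein that interacts with PMEL, read 0.46, -0.46 and -2.07 in WT and 3.36, 2.76, -1.53 and -1.24 in KO. Its difference of 1.53 (SE 1.26, adjusted p = 0.826) was the largest of the 10 genes, and the SD within KO was 2.58 (n = 4) against 1.28 in WT (n = 3).

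The transporters gave a narrower spread among the 5 remaining arrays. Oca2 is a melanosomal membrane protein that helps raise the pH inside the melanosome, which tyrosinase needs. It read 0.10, -0.28 and -0.68 in WT and 3.06, 1.71, -0.022 and -0.84 in KO, for a difference of 1.27 (SE 0.81, adjusted p = 0.781 by limma). Its 5 arrays other than KO animals 8 and 10 spanned 0.94 log2 units, where those of Dct spanned 2.67. KO animal 8 stood 1.35 above KO animal 10 in Oca2, the largest gap between these animals in any member.

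Slc45a2, a melanosomal transporter whose loss also lightens the coat, gave the only member probe set whose groups did not overlap. Probe set 1437430_at read -0.12, -0.21 and -0.034 in WT and 0.82, 0.39, 0.13 and 0.034 in KO. Groups were apart with KO higher in 1 of the 19 member probe sets, against 3.23% of all probe sets (7.77% when both directions are counted). The difference was 0.47 (SE 0.19), with an unadjusted p of 0.035 and an adjusted p of 0.627 by limma. The other Slc45a2 probe set, 1451055_at, did overlap between groups, at 0.17, -0.36 and -0.34 in WT and 1.42, 0.66, -0.63 and -0.075 in KO. It differed by 0.52 (SE 0.43), so the separation seen with 1 probe set was not seen with the other.

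Mc1r, the receptor through which melanocyte-stimulating hormone raises eumelanin, gave 2 probe sets that also differed in pattern. Probe set 1422069_at read -0.27, -0.19 and -0.049 in WT and 0.46, 0.42, 0.21 and -0.12 in KO. Here KO animal 11 joined KO animals 8 and 10 above the WT arrays, and KO animal 12 lay within them. Its difference of 0.41 (SE 0.16) had the lowest p of all members (unadjusted p = 0.0289, adjusted p = 0.605 by limma). Probe set 1435393_at read 0.087, -0.08 and -0.53 in WT and 1.90, 1.02, -0.15 and -0.52 in KO, and differed by 0.74 (SE 0.52).

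Mitf, the master regulator of the melanocyte, is also expressed from other start sites in mast cells and macrophages. Probe set 1455214_at read 0.16, -0.24 and -0.31 in WT and 0.77, 0.63, -0.77 and -0.04 in KO. The order resembled that of the enzymes, with KO animals 8 and 10 highest and KO animal 11 lowest, but the range was 1.54 log2 units or 2.90-fold. The difference was 0.28 (SE 0.34, adjusted p = 0.889 by limma). Probe set 1422025_at spanned 0.84 log2 units, from -0.30 in WT animal 4 to 0.54 in KO animal 8, and differed by 0.20 (SE 0.20). The probe sets were not matched to start sites, so the melanocyte form of Mitf was not measured apart from the others.

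Sox10 was the member that did not share the pattern. Probe set 1424985_a_at read 0.0091, 0.10 and -0.016 in WT and -0.30, -0.0091, 0.22 and 0.13 in KO. KO animal 8, the highest array in every other member, was here the lowest. The difference was -0.024 (SE 0.14, 95% interval -0.34 to 0.30). Probe set 1425369_a_at read 0.10, -0.04 and 0.027 in WT and -0.35, -0.027, 0.061 and 0.12 in KO, again with KO animal 8 lowest, and its interval was -0.38 to 0.23. Probe set 1451689_a_at read -0.022, -0.072 and 0.29 in WT and -0.071, 0.18, 0.022 and 0.25 in KO, with an interval of -0.28 to 0.34. The ranges over the 7 arrays, 0.52, 0.46 and 0.36, were larger than those of 43.0%, 33.9% and 18.9% of all probe sets, so Sox10 varied no more than a typical probe set. Differences down to -0.38 and up to 0.34 on the log2 scale thus lay within an interval of at least 1 Sox10 probe set.

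Set side by side, the enzymes and the identity factors differed in the size of their movement across arrays. Gene values spanned 4.25 to 5.01 log2 units in the enzymes, 1.54 in Mitf and 0.41 in Sox10. Narrow spans were not particular to the identity factors, as Slc45a2 spanned 1.41 and Mc1r 1.50. The mean of Mitf and Sox10 read 0.092, -0.12 and -0.11 in WT and 0.26, 0.34, -0.33 and 0.063 in KO. The enzyme mean minus this mean was 0.42, -0.11 and -1.54 in WT and 2.65, 1.79, -1.32 and -1.14 in KO. The groups overlapped in this quantity, with KO animals 11 and 12 inside the WT range and KO animals 8 and 10 above it. Among the enzymes, Pmel and Mlana the proportions were steadier. Tyr minus the mean of Tyrp1, Dct, Pmel and Mlana stayed between -0.60 and -0.053 on all 7 arrays, while that mean itself ran from -1.71 to 3.02. Oca2 minus the same mean ran from -0.59 to 1.56, with its highest values in KO animal 11 and WT animal 4, the 2 arrays lowest in that mean. Slc45a2 and Mc1r also did not keep a steady proportion to that mean, as their own values ran only from -0.29 to 1.12 and from -0.32 to 1.18.

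Without KO animals 8 and 10 the direction of most members turned. Of the 19 probe sets, 14 were then lower in KO and 5 higher, with a median difference of -0.17. By limma 0 passed the adjusted threshold (background 0.0133%) and 0 had an unadjusted p under 0.05 (background 7.54%), with a lowest adjusted p of 0.677. Per gene, the difference went from 1.03 to -1.08 in Tyr, from 1.23 to -0.50 in Tyrp1, from 0.84 to -1.16 in Dct, from 1.11 to -0.79 in Pmel and from 1.53 to -0.69 in Mlana. It went from 1.27 to -0.14 in Oca2, from 0.49 to 0.017 in Slc45a2, from 0.58 to 0.028 in Mc1r and from 0.28 to -0.27 in Mitf. Sox10 went from -0.024 to 0.09. In 16 of the 19 probe sets these 2 animals were the highest arrays. Leaving them out thus had to lower those KO means, and only the size of the fall was open. The positive sign of the difference between KO and WT in the enzymes and melanosome proteins rested on these 2 of the 4 KO animals. Single animals and the scaling also moved the sizes of these differences. Without KO animal 8 alone, Tyr 1417717_a_at went to 0.15, Tyrp1 1415861_at to 0.24 and Dct to 0.056, and without KO animal 10 alone they went to 0.50, 0.57 and 0.30. Without KO animal 11 they went to 1.80, 2.31 and 1.71, without WT animal 2 to 1.55, 1.84 and 1.31, and without WT animal 4 to 0.35, 0.49 and 0.23. Quantile normalization gave 0.36 in Tyr, 0.44 in Tyrp1 1415861_at, 0.34 in Dct and 0.68 in Mlana.

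**Figure D2:**
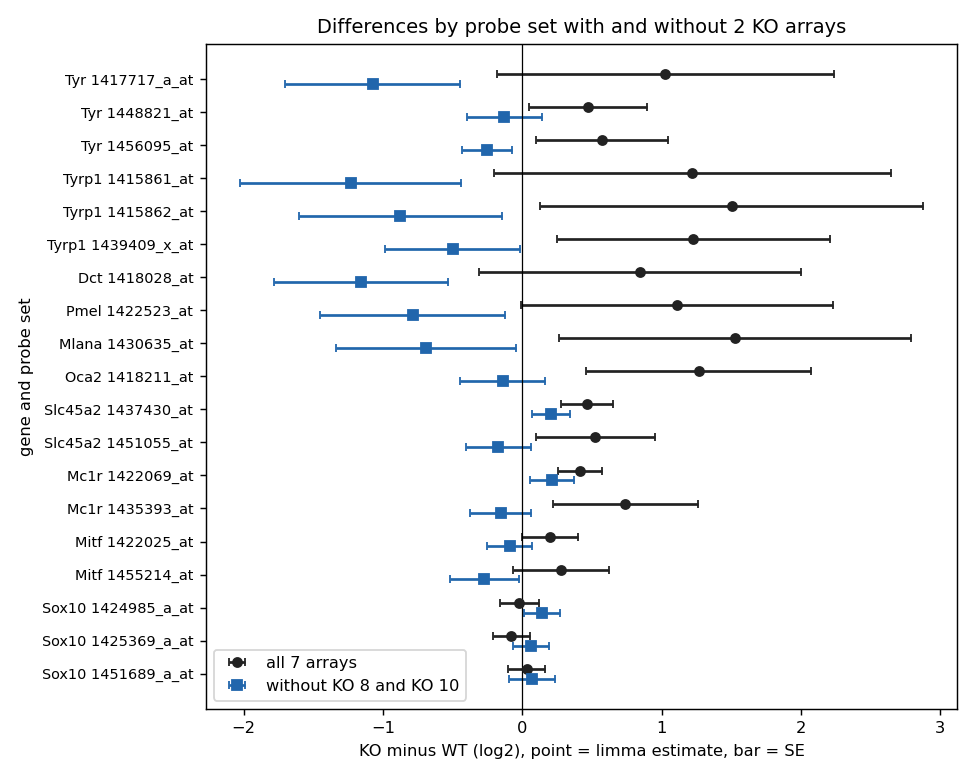
KO minus WT difference (horizontal axis, log2, limma estimate with its SE as the bar) for each of the 19 member probe sets (vertical axis), with all 7 arrays in black and without KO animals 8 and 10 in blue. Nearly all black points lie right of 0 and most blue points left of it, as in Dct (0.84 and -1.16), while the Sox10 points stay near 0 in both.

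Hair genes were high on the same 2 arrays as the pigment genes. A list of 30 hair follicle keratin and hair shaft genes, of which 28 were measured (Krt85 and Dsg4 were not analysed here), had a mean of 0.68, -1.63 and -2.48 in WT and 3.80, 3.88, -2.11 and -0.77 in KO. All 28 were higher in the KO mean, with a median difference of 2.40. Without KO animals 8 and 10 the median was -0.34 and 6 of 28 were higher. With all arrays, 0 of their 32 probe sets passed the adjusted threshold and 0 had an unadjusted p under 0.05 by limma (background 0.0444% and 7.39%). KO animals 8 and 10 were both above the other 5 arrays in 27 of the 28, against 2033 of all 18193 genes. With the hair mean as a covariate in limma, 12 of the 19 member probe sets were lower in KO and 7 higher, with a median difference of -0.068. No member passed the adjusted threshold (background 0.0844%, lowest adjusted p 0.436), and 2 had an unadjusted p under 0.05 (background 10.0%). These were Tyrp1 1415861_at, at -0.91 (SE 0.36), and Dct, at -0.88 (SE 0.32). The hair mean was itself far higher in KO animals 8 and 10 than in the others. This fit therefore overlaps with leaving those animals out and is no independent check. The hair mean also took 1 of the few degrees of freedom, and the part of hair follicle content in the pigment gene values was not tested.

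**Figure D3:**
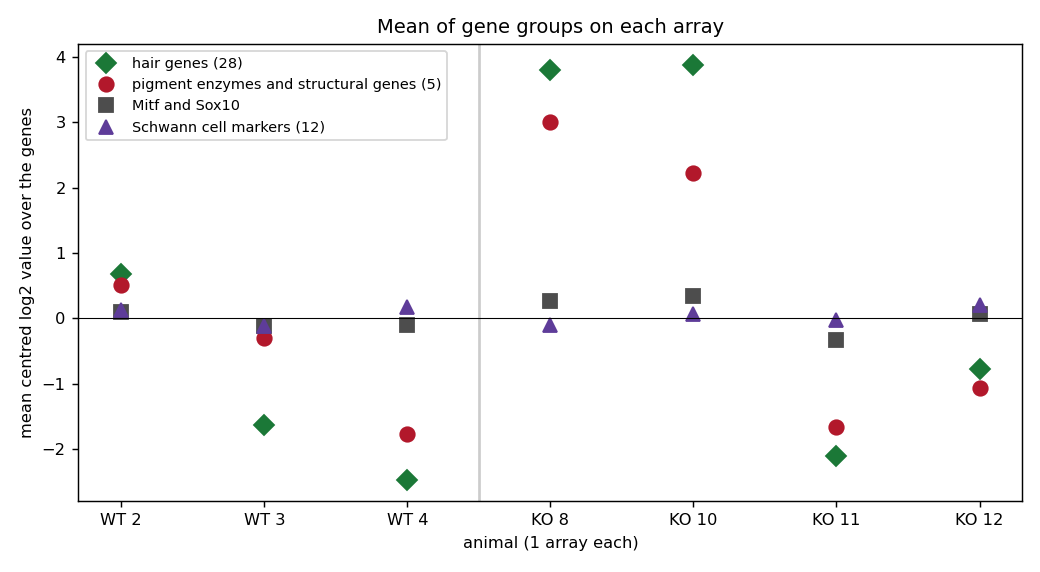
Mean centred log2 value (vertical axis) of 28 hair genes, 5 pigment enzyme and structural genes, Mitf with Sox10, and 12 Schwann cell markers in each animal (horizontal axis, 1 array each). The hair and pigment means are highest in KO animals 8 and 10 (hair 3.80 and 3.88, pigment 3.01 and 2.23). The Mitf with Sox10 mean is also highest in these 2 animals (0.26 and 0.34), within a narrower range of -0.33 to 0.34. This comes from Mitf (0.77 and 0.63 in KO animals 8 and 10), as Sox10 reads -0.24 and 0.049 there.

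The pigment genes did not follow the hair genes in every detail. KO animals 8 and 10 were level in the hair genes, where KO animal 8 minus KO animal 10 had a median of -0.08 and ran from -0.59 to 0.34, with 11 of 28 above 0. In the 8 members other than Mitf and Sox10, KO animal 8 was above KO animal 10 in 8 of 8, by 0.46 to 1.35, with a median of 0.67. Other lists showed this order too: KO animal 8 was above KO animal 10 in 9 of 10 macrophage markers (median 0.31, up to 1.45), 8 of 10 mast cell markers and 22 of 30 further melanosome genes, against 8648 of all 18193 genes. Over probe sets, it was above in 16 of the 16 outside Sox10, by 0.04 in Mc1r 1422069_at up to 1.35 in Oca2. The gap between KO animals 8 and 10 compares 1 animal with 1 animal and has no replicate check.

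**Figure D4:**
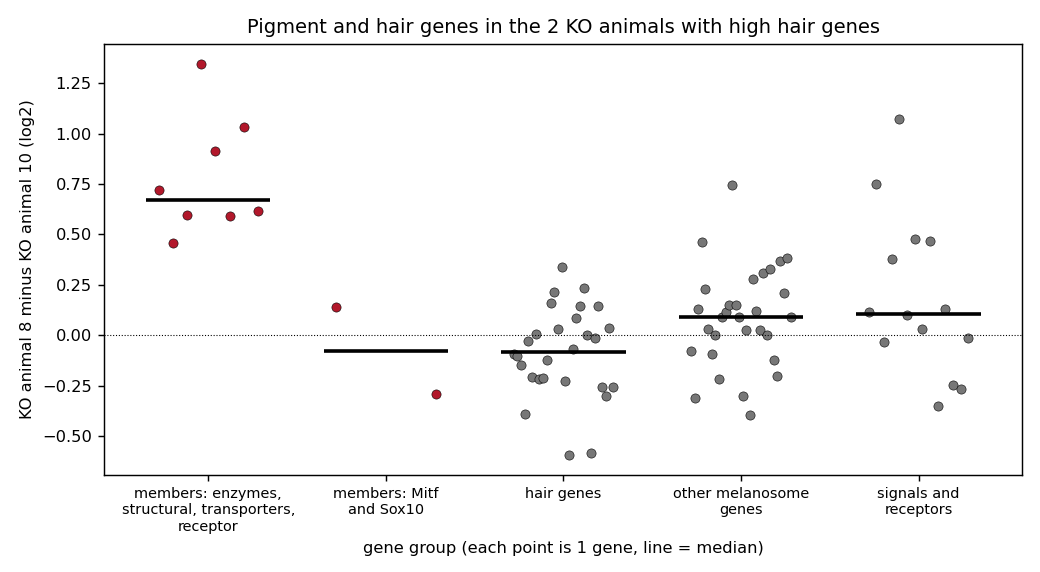
KO animal 8 minus KO animal 10 (vertical axis, log2) for each gene (points, line = median) of 5 gene groups (horizontal axis). The 8 pigment members outside Mitf and Sox10 lie between 0.46 and 1.35, all above the highest hair gene at 0.34.

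The wider melanosome machinery was mixed. Of 32 listed genes of melanosome biogenesis and transport, 30 were measured (Slc24a5 and Bloc1s1 were not analysed here), 16 were higher and 14 lower in KO, and the median difference was 0.025 (-0.13 without KO animals 8 and 10). By limma 0 of their 60 probe sets passed the adjusted threshold and 5 (8.33%) had an unadjusted p under 0.05 (background 0.0444% and 7.39%). The smallest p-values belonged to Slc7a11, the cystine transporter (difference -0.72), and Ap3d1, a subunit of the AP-3 sorting adaptor (difference -0.28). Next came Bace2, a protease that cuts PMEL (difference 0.42), and Rab32, a melanosome trafficking GTPase (difference -0.47). Each difference is that of the gene's probe set with the smallest p. The other Bace2 probe sets ran from -0.11 to 0.19, and the other ones of Slc7a11 and Ap3d1 differed by -0.56 and -0.14. KO animals 8 and 10 were both highest in 8 of the 30, against 2033 of all 18193 genes: Gpr143, Trpm1, Gpnmb, Myo5a, Mlph, Hps3, Bloc1s2 and Atp7a.

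Gpr143, the ocular albinism receptor of the melanosome, read -0.091, -0.31 and -0.46 in WT and 2.22, 1.47, -0.27 and 0.091 in KO, a difference of 1.17 (SE 0.54, adjusted p = 0.699 by limma). Trpm1, a melanocyte cation channel, read 0.17, -0.12 and -0.52 in WT and 1.44, 1.06, -0.30 and -0.30 in KO, a difference of 0.63, and its probe set 1418935_at differed by 1.26 (SE 0.98). Mlph and Myo5a, the linker and the motor that carry melanosomes along actin, differed by 0.24 and 0.40, and Rab27a, their partner on the melanosome, by 0.042. Gpnmb, a melanosome glycoprotein that macrophages also make, differed by 0.46. Other probe sets differed less, by 0.029 in Mlph, 0.098 and 0.099 in Myo5a, and 0.16 in Gpnmb. Many of the trafficking genes of this list are not confined to melanocytes.

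Signals and receptors of the melanocyte gave 14 measured genes of 16 (Asip and Pcsk2 were not analysed here), 9 higher and 5 lower in KO, with a median difference of 0.13 (-0.041 without KO animals 8 and 10). By limma 0 of their 30 probe sets passed the adjusted threshold and 3 (10%) had an unadjusted p under 0.05 (background 0.0444% and 7.39%). Pcsk1, a prohormone convertase, had the smallest p (difference 0.31, unadjusted p = 0.026 by limma). It was followed by Mgrn1, the mahogunin ubiquitin ligase (difference -0.32, with -0.31 and 0.10 in its other probe sets). Corin, a protease of the dermal papilla that limits agouti signalling, was next. It read 0.035, -0.035 and -0.26 in WT and 3.18, 2.43, 0.50 and -0.12 in KO, a difference of 1.58 (SE 0.71, adjusted p = 0.691 by limma), with KO animals 8 and 10 highest, as in the enzymes. Atrn, attractin, differed by 0.24 in probe set 1434197_at and by 0.068 in 1421166_at.

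Kit, the receptor for stem cell factor that melanocytes and mast cells share, read -0.05, 0.053 and -0.64 in WT and 0.89, 0.86, -1.17 and -0.92 in KO, with a difference of 0.13. Ednrb, the endothelin receptor, read 0.31, -0.30 and -0.15 in WT and 1.39, 0.32, -0.21 and -0.68 in KO, with a difference of 0.25. In Ednrb KO animal 10 was level with WT animal 2, and KO animal 8 alone stood above. Pomc, the precursor of melanocyte-stimulating hormone, differed by -0.026.

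Among 14 other transcription factors of melanocytes and the neural crest, 8 were higher and 6 lower in KO, with a median difference of 0.11 (-0.032 without KO animals 8 and 10). By limma 0 of 34 probe sets passed the adjusted threshold and 7 (20.6%) had an unadjusted p under 0.05 (background 0.0444% and 7.39%). The smallest p belonged to Zeb2, with a difference of -1.10 in its probe set 1454200_at (SE 0.19, adjusted p = 0.158 by limma). Next were Tfec, a relative of Mitf that macrophages express, Tfap2b and Sox9, with differences of -0.70, 0.57 and 0.55. Pax3, an activator of Mitf, differed by 0.084 and spanned 0.27 log2 units over the 7 arrays. KO animals 8 and 10 were both highest in 6 of the 14 factors, against 2033 of all 18193 genes. These 6 included Pax3 and Snai2, which spanned only 0.27 and 0.45 log2 units. Another of the 6 was Lef1, a Wnt pathway factor that hair follicles also express, named here after its values were seen. It read 0.16, -0.16 and -0.70 in WT and 2.91, 2.21, -0.75 and -0.60 in KO, a difference of 1.18.

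Cell types that share the identity factors were read beside them, and their part in the results was not tested. Of the 12 Schwann cell markers measured, 4 were higher and 8 lower in KO, with a median difference of -0.062 (0.078 without KO animals 8 and 10), and the list mean ran from -0.12 to 0.17 in WT and from -0.10 to 0.21 in KO. KO animal 8, the lowest array in 2 Sox10 probe sets, had the second lowest Schwann mean. In this list 0 of 28 probe sets passed the adjusted threshold by limma (background 0.0444%). An unadjusted p under 0.05 was found in 7 (25%, background 7.39%), all of them probe sets of Mbp, myelin basic protein. The lowest p was at -1.08 in probe set 1433532_a_at (SE 0.15, adjusted p = 0.0918 by limma), and the probe set that gives its gene value, 1425264_s_at, differed by -0.17.

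Mast cells and macrophages, which can hold Mitf, were read by 10 markers each. The 10 mast cell markers were lower in KO in 10 of 10, with a median difference of -0.37 (-0.48 without KO animals 8 and 10) and list means of 0.01 to 0.59 in WT and -0.34 to 0.08 in KO. The 10 macrophage markers were lower in 10 of 10, with a median of -0.43 (also -0.48 without those animals) and list means of 0.045 to 0.32 in WT and -0.52 to -0.027 in KO. By limma 0 of the 14 and 0 of the 15 probe sets of these lists passed the adjusted threshold (background 0.0444%). At an unadjusted p under 0.05 there were 6 (42.9%) and 4 (26.7%), against 7.39% of all probe sets. The lowest values were those of Hdc, histidine decarboxylase (-1.02, adjusted p = 0.172), and Itgam, an integrin of myeloid cells (-1.36, adjusted p = 0.172). The 12 skeletal muscle markers were also lower in 12 of 12, with a median of -0.56 and their lowest list means, -1.01 and -0.81, in KO animals 8 and 10, and a median of -0.05 without them. Of their 19 probe sets 0 passed the adjusted threshold and 0 had an unadjusted p under 0.05 by limma (background 0.0444% and 7.39%). Over all 18193 genes with a symbol of their own, 50.9% were higher in KO, with a median of 0.0039.

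The genes outside the list whose values were most like the enzyme mean over the 7 arrays, by Pearson correlation, were Foxp1 (0.999), Ppp1r2 (0.994), Alcam (0.993), Neo1 (0.992), Mcoln3 (0.991) and Creb5 (0.99). In all, 208 genes had a correlation above 0.95. Their ranges were smaller than those of the enzymes: Foxp1 probe set 1435222_at spanned 0.71 log2 units and Ppp1r2 only 0.20, while Mcoln3 spanned 2.58. Most like the mean of Mitf and Sox10 were Spred2 (0.999), Ankrd17 (0.993), Hmcn1 (0.992), Siva1 (0.991), Dpy19l4 (0.991) and Ube2q1 (0.988), with 69 genes above 0.95. That mean mostly follows Mitf, whose gene value spanned 1.54 log2 units against 0.41 in Sox10. Over the 5 arrays without KO animals 8 and 10, the correlations of the named genes ran from 0.955 (Mcoln3) to 0.999 (Foxp1) with the enzyme mean, and from 0.966 (Ube2q1) to 0.999 (Spred2) with the mean of Mitf and Sox10. They were chosen for these correlations out of all genes, so the values are a description, and the genes share the same libraries.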

How the data were processed

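The deposited table holds 1 value per probe set and array on a log2 scale, made by the submitters with GCRMA per the submitters' processing notes. The version, the chip definition and the log base are not given in the sources used here, and base 2, the scale that GCRMA returns, was taken. A baseline per probe set had been subtracted: for 72.4% of probe sets, 2 neighbouring values in the middle of the order were equal but for sign (tolerance 1e-06). It cancels in differences between arrays. The precision with which values were stored gave a coarse level for the lowest array (19.1% of probe sets between 2 and 4, 53.8% between 4 and 8, 27.1% at 8 or above).

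The table lists 45101 probe sets. Without 64 controls, 45037 were tested, of which 34945 carry 1 symbol, 932 several and 9160 none. All 10 members matched RefSeq by Entrez ID. KO and WT were compared with limma 3.58.1 in R 4.3.3 (lmFit, eBayes) over all probe sets, with Benjamini-Hochberg adjustment and a threshold of 0.05. No sample was dropped or imputed, and the number of arrays (3 WT, 4 KO) limits the precision. A gene's value is the mean over its probe sets in its highest recovered band, which for Tyr, Tyrp1 and Mitf leaves 1 probe set. Lists were described by counts and medians. All members were named, with up to 4 genes of smallest p per list, a few chosen melanocyte genes, and the 6 genes most like each profile. The members and lists were chosen with earlier results of these data known. The fit was tested on simulated data. Alternatives were the normalization between arrays, the variance moderation, array weights, filters on probe sets, gene means over every probe set, a hair covariate and omitted animals. Other tools were Python 3.11.15, pandas 2.3.3, numpy 2.4.6 and matplotlib 3.10.9.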

Additional observations from a re-analysis of the deposited data

How the results depend on the processing

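Under every alternative run, 0 member probe sets passed the adjusted threshold of 0.05. The count over all probe sets, 20, became 13 after quantile normalization, 68 with array weights, 11 without probe sets named _x_at, _s_at or _a_at, 38 with the hair mean as a covariate and 6 without KO animals 8 and 10. Leaving out 1 animal gave 5 (without WT animal 3) to 19, with 7 without WT animal 2 and 6 without KO animal 10. The Mfge8 difference stayed between -1.81 and -2.03 when 1 animal was left out (adjusted p from 0.00518 to 0.0922), and missed the threshold at -1.89 (WT animal 2 left out), -1.97 (WT animal 3 left out) and -1.92 (KO animal 10 left out).

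Signs turned as follows, and the cause was not tested. With the hair covariate the differences were -0.76, -0.0016 and -0.073 in the Tyr probe sets, -0.91, -0.55 and -0.23 in Tyrp1, -0.88 in Dct, -0.56 in Pmel, -0.35 in Mlana, -0.068 in Slc45a2 1451055_at, -0.051 and -0.21 in Mitf, and 0.099 and 0.0057 in 2 of Sox10. Without KO animals 8 and 10 they were -1.08, -0.13 and -0.25 in Tyr, -1.23, -0.88 and -0.50 in Tyrp1, -1.16 in Dct, -0.79 in Pmel, -0.69 in Mlana, -0.14 in Oca2, -0.17 in Slc45a2 1451055_at, -0.16 in Mc1r 1435393_at, -0.090 and -0.27 in Mitf, and 0.14 and 0.059 in Sox10. Leaving out 1 animal turned only Sox10 signs, though without KO animal 8 Pmel went to 0.32 and Mlana to 0.69; the Sox10 ranges were -0.093 to 0.080 in 1424985_a_at, -0.13 to 0.020 in 1425369_a_at and -0.039 to 0.14 in 1451689_a_at. The level filter leaves 17 of the 19 probe sets. No member turned under the normalization, variance, weight or filter alternatives, but sizes moved: quantile normalization took Pmel from 1.11 to 0.53 and Oca2 from 1.27 to 0.78, and array weights took Dct from 0.84 to 1.43. No paired analysis was possible because the groups share no animal number.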
